A study of Mus musculus with 8 samples.

Results

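The comparison described here asks how the effect of *Pcgf5* loss on gene expression differed between day 0 and day 6 of neural differentiation in mouse embryonic stem cells (mESCs). For each gene, the difference between *Pcgf5*-/- and WT samples at day 0 was subtracted from the same difference at day 6, and the result is called the contrast. All 8 of the 8 RNA-seq samples entered it, 2 in each of the conditions WT_day0, *Pcgf5*-/-_day0, WT_day6 and *Pcgf5*-/-_day6. A level offset that a genotype carried on both days drops out of the contrast. All samples came from the MPI-II mESC line with 129S2/SvPas as the stated source. WT and *Pcgf5*-/- cells of day 0 were grown on feeder cells in serum with LIF, CHIR99021 and PD0325901, the inhibitor pair known as 2i. The cells of day 6 had been moved to the serum-free N2B27 medium, in which mESCs turn towards neural cells. The *Pcgf5*-/- cells were made with a TALEN pair that cuts in the second exon, with puromycin and neomycin cassettes as donors, and were expanded from single colonies. The labels do not tie a library to a colony, so that an effect of *Pcgf5* loss and a trait of a colony cannot be told apart. P-values measure the spread between samples that are labelled as biological replicates.

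PCGF proteins are the subunits that tell the variants of Polycomb repressive complex 1 (PRC1) apart. Together with RING1A or RING1B they place ubiquitin on histone H2A at developmental genes, a mark tied to repression. When mESCs leave the naive state, the transcription factors that hold that state are shut off, a formative epiblast state is passed through, and neural progenitor genes such as *Sox1* and *Pax6* come on before the genes of neurons.

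Levels are FPKM values as the authors computed them, a unit that divides a gene's fragments by its length and by the library's depth, and differences and contrasts are on the log2(FPKM + 1) scale. *Pcgf5*, on chromosome 19, was at 5.18 and 3.63 FPKM in WT_day0 and at 1.28 and 1.84 FPKM in *Pcgf5*-/-_day0. At day 6 it was at 9.16 and 5.06 FPKM in WT and at 0.669 and 0.457 FPKM in *Pcgf5*-/- cells. The genotypes did not overlap on either day, in the direction the labels give. The contrast of *Pcgf5* was -1.26 (SE 0.40, limma adjusted p = 0.115) and did not pass 0.05. Sums over the fixed mESC and neural progenitor marker lists followed the labels as well. The sum over 6 mESC markers, in FPKM, lay between 1318 and 1405 in the day 0 samples. It stood at 280 and 181 in WT_day6 and at 669 and 621 in *Pcgf5*-/-_day6. For 7 neural progenitor markers the sum was 13.7, 15.7, 17.6 and 21.999 in the day 0 samples. It reached 385 and 379 in WT_day6 and 132 and 144 in *Pcgf5*-/-_day6. The sum over 6 neuron markers was 173 and 176 FPKM in WT_day0 and 149 and 176 in *Pcgf5*-/-_day0. At day 6 this sum was 443 and 319 in WT and 164 and 150 in *Pcgf5*-/- cells, the latter within the day 0 range. The sum mixes opposite courses. *Stmn2*, its largest part at day 0, went from 90.04 and 92.1 FPKM to 36.2 and 32.3 in *Pcgf5*-/- cells. In the same cells *Tubb3* rose from 50.5 and 65.7 FPKM to 96.7 and 85.4. *Elavl3*, *Map2* and *Dcx* also rose there, while *Nefm* overlapped between the days. Over the 26 tested neuron genes the median difference between the days was 0.87 in *Pcgf5*-/- and 2.24 in WT cells. In bulk samples, fewer cells of a type and less RNA per cell cannot be told apart. Markers of feeder fibroblasts were detected at day 0. The sum over 9 feeder fibroblast markers was 268 and 172 FPKM in WT_day0 and 169 and 574 FPKM in *Pcgf5*-/-_day0, with the highest value in replicate 2 of *Pcgf5*-/-_day0. At day 6 its range was 11.4 to 33.9 FPKM. Of the 9 markers, *Lum* and *Prrx1* were highest in WT_day0 replicate 1 and the others in *Pcgf5*-/-_day0 replicate 2. Depth was comparable across libraries: read from the steps between low FPKM values, it ranged from 0.993 to 1.29 times that of WT_day0 replicate 1.

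The genotype difference of 177 genes was higher at day 6 than at day 0, and that of 231 genes was lower (limma, adjusted p under 0.05). This is 1.34% of the 13214 tested genes for the higher and 1.75% for the lower direction. At an unadjusted p under 0.05 there were 1141 higher and 1923 lower genes, 3064 of the 13214 in all. The counts at an unadjusted p in the gene lists below are to be read beside these. The median contrast over all tested genes was -0.10, with a median SE of 0.28 and a median half-width of the 95% interval of 0.63. That interval is not adjusted for the number of genes tested. For a typical gene a difference of differences had to be larger than that to be called. The smallest called contrasts were 0.71 in size for the higher and 0.79 for the lower direction. Of the called genes 43.4% were higher. Quantile normalization moved that share to 57.7% and median centring to 70.0%, and median centring moved the contrast of every gene by 0.18 at the median, so the balance of higher against lower genes depends on the scaling.

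The number of called genes differed between fits that left out 1 library. Such a fit has a condition with 1 sample, which is assumed to vary like the samples of the other conditions, and fewer degrees of freedom. Without WT_day0 replicate 2 there were 4 higher and 0 lower genes, although 2277 genes still had an unadjusted p under 0.05. Without *Pcgf5*-/-_day0 replicate 2, and likewise without WT_day6 replicate 2, far fewer genes were called than with all 8 samples, and most of the calls were lost. The median contrast over all tested genes was -0.08 and -0.09 in these fits. Without *Pcgf5*-/-_day6 replicate 1 there were 4 higher and 0 lower genes, and without *Pcgf5*-/-_day6 replicate 2 there were 5 and 0, with 2293 and 2941 genes at an unadjusted p under 0.05. Leaving out WT_day0 replicate 1 left 98 and 107 genes, *Pcgf5*-/-_day0 replicate 1 left 66 and 151, and WT_day6 replicate 1 left 197 and 150. The calls below hold for all 8 samples together, and the values per sample are given so that each can be judged on its own.

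Most called genes followed a single pattern, in which *Pcgf5*-/- cells moved less than WT cells. Of the 231 lower genes, 230 had a higher mean at day 6 than at day 0 in WT, and 200 of these also did in *Pcgf5*-/- cells but by less. Their median difference between the days was 2.43 in WT and 0.93 in *Pcgf5*-/- cells. Of the 177 higher genes, 167 had a lower mean at day 6 than at day 0 in WT, with 97 of these also lower at day 6 in *Pcgf5*-/- cells and 68 higher. Over the 177 genes the median difference between the days was -1.72 in WT and -0.11 in *Pcgf5*-/- cells. The genotype difference at day 0 contributed less than that at day 6. Its median was -0.29 for the higher and 0.32 for the lower genes at day 0, against 1.28 and -1.16 at day 6. These medians describe genes chosen by the contrast and are no test of it.

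**Figure D1:**
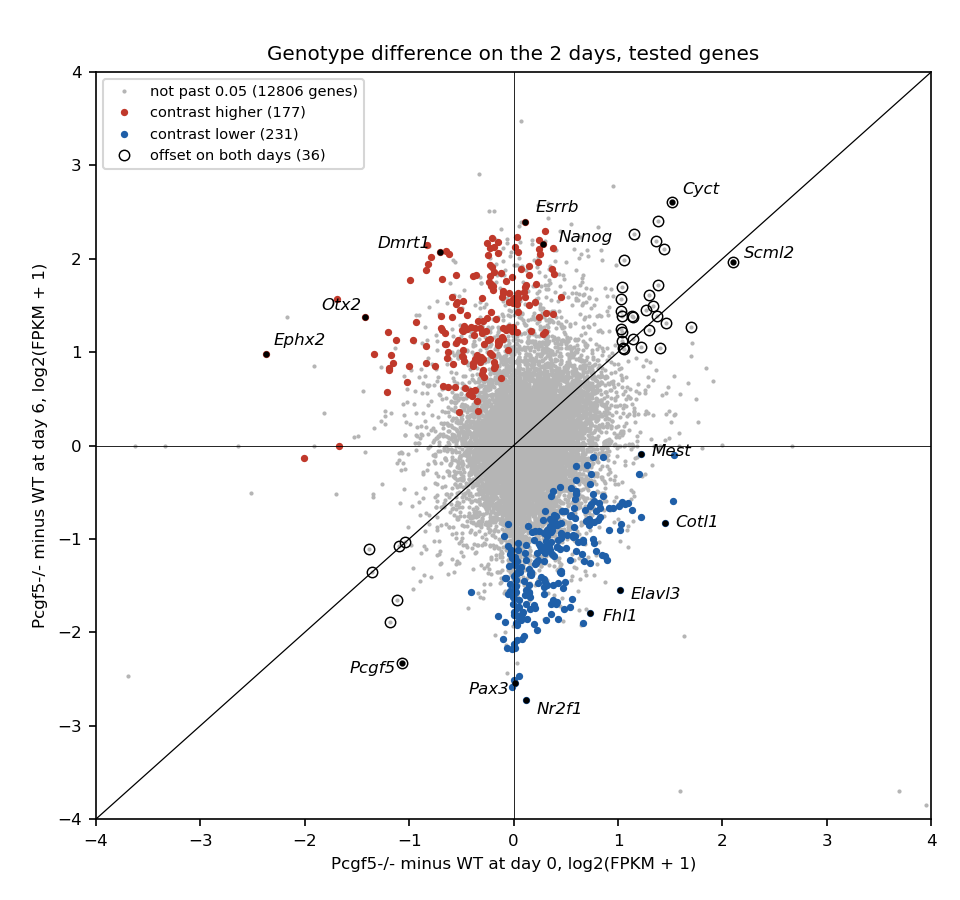
Genotype difference (*Pcgf5*-/- minus WT, log2(FPKM + 1)) at day 0 on the horizontal and at day 6 on the vertical axis for each tested gene, with the diagonal where both are equal. The 177 genes with a higher contrast (red) lie above the diagonal and the 231 with a lower contrast (blue) below it, mostly near 0 at day 0, while the 36 offset genes (open circles) lie along the diagonal and 20 genes fall outside the axes.

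Among genes with a locus of at least 300 bp, to which naming was limited, the 12 highest called contrasts belonged to genes that were, at the mean, below WT in *Pcgf5*-/- cells at day 0 and above WT at day 6. A ranking by the contrast favours genes whose order reverses between the days, at either end, so this is no separate result. *Ephx2*, soluble epoxide hydrolase, had the highest contrast. It was at 14.1 and 16.6 FPKM in WT_day0, 2.54 and 1.797 in *Pcgf5*-/-_day0, 3.45 and 3.40 in WT_day6 and 6.38 and 9.30 in *Pcgf5*-/-_day6. The genotypes changed places without overlap, and the contrast was 3.36 (SE 0.31, limma adjusted p = 0.0136). *Otx2*, a homeobox factor of the epiblast and later of the forebrain and midbrain, was at 15.1 and 8.49 FPKM in WT_day0 and 5.71 and 2.17 in *Pcgf5*-/-_day0. At day 6 it was at 11.9 and 7.03 FPKM in WT and 31.9 and 20.1 in *Pcgf5*-/- cells, for a contrast of 2.80 (SE 0.60, limma adjusted p = 0.0495). WT cells were thus at a like level on both days, and the *Pcgf5*-/- samples went from lowest to highest.

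Further genes of the highest 12 are known from germ cells or the early embryo, though no member of the fixed germline list was called. *Rnf17*, a Tudor domain gene of male germ cells, was at 11.3 and 22.6 FPKM in WT_day0 and 4.22 and 4.34 in *Pcgf5*-/-_day0, then at 3.89 and 1.34 in WT_day6 and 13.4 and 5.98 in *Pcgf5*-/-_day6, with a contrast of 3.26 (SE 0.65, limma adjusted p = 0.0435). *Dmrt1*, a transcription factor of germ cells and testis, was at 3.81 and 4.36 FPKM in WT_day0 and 1.56 and 2.80 in *Pcgf5*-/-_day0. At day 6 it was at 2.63 and 2.33 in WT and 11.1 and 16.6 in *Pcgf5*-/- cells, for a contrast of 2.77 (SE 0.37, limma adjusted p = 0.0243). *Dmrt1* was the gene of this group whose *Pcgf5*-/- level at day 6 was well above that of WT on either day. *Ooep*, a maternal gene of oocyte and early embryo, went from 38.6 and 46.9 FPKM to 3.58 and 1.13 in WT, and from 25.02 and 22.2 to 13.6 and 12.1 in *Pcgf5*-/- cells, with a contrast of 2.98 (SE 0.44, limma adjusted p = 0.0275). *Triml1* and *Triml2*, neighbouring tripartite motif genes of the early embryo on chromosome 8, moved in the same way. *Triml1* went from 30.1 and 37.4 FPKM to 5.25 and 1.91 in WT and from 17.5 and 15.3 to 13.6 and 13.5 in *Pcgf5*-/- cells, a contrast of 2.76. *Triml2* went from 73.8 and 77.0 to 14.1 and 5.003 in WT and from 46.8 and 46.1 to 33.97 and 29.5 in *Pcgf5*-/- cells, a contrast of 2.46 (limma adjusted p = 0.0299 and 0.0435).

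The remaining 5 of the highest 12 were *Fetub*, *Mlana*, *Calcoco2*, *Ifitm1* and *Phf11d*, with contrasts of 2.81, 2.77, 2.73, 2.72 and 2.66 (limma adjusted p from 0.0243 to 0.0305). *Fetub* encodes the secreted protease inhibitor fetuin-B, *Mlana* a melanosome protein, *Calcoco2* an autophagy receptor, *Ifitm1* an interferon-induced membrane protein and *Phf11d* a PHD finger protein. *Calcoco2* had 45.8 and 72.3 FPKM in WT at day 0 against 3.62 and 2.11 at day 6, while *Pcgf5*-/- cells had 31.3 and 42.5 and then 14.1 and 16.1 FPKM. *Ifitm1* stood at 146 and 153 FPKM in WT_day0, 121 and 57.1 in *Pcgf5*-/-_day0, 40.6 and 32.02 in WT_day6 and 135 and 137 in *Pcgf5*-/-_day6. In *Ifitm1*, replicate 2 of *Pcgf5*-/-_day0 lay far below replicate 1.

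Some of the 12 lowest called contrasts belonged to genes that were near 0 at day 0 in both genotypes. *Nr2f1*, the nuclear receptor COUP-TFI that patterns the cortex, was below 0.6 FPKM in all day 0 samples. At day 6 it was at 26.5 and 38.04 FPKM in WT and 2.89 and 5.32 in *Pcgf5*-/- cells, for a contrast of -2.84 (SE 0.39, limma adjusted p = 0.0243). *Pax3*, a factor of the dorsal neural tube and neural crest, was at 9.92 and 16.1 FPKM in WT_day6 and 1.06 and 1.69 in *Pcgf5*-/-_day6, and at most 0.0725 FPKM at day 0, with a contrast of -2.55 (SE 0.35, limma adjusted p = 0.0243). *Ednrb*, the endothelin receptor of neural crest and glial precursors, had 48.5 and 58.0 FPKM in WT_day6 and 8.75 and 8.71 in *Pcgf5*-/-_day6, a contrast of -2.52 (SE 0.25, limma adjusted p = 0.0141). *Pantr1*, a non-coding transcript beside *Pou3f3*, was listed at 0 in all day 0 samples and stood at 25.2 and 17.1 FPKM in WT_day6 and 2.73 and 2.93 in *Pcgf5*-/-_day6, a contrast of -2.51. For these genes the contrast was in effect the genotype difference of day 6.

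Other genes at this end also differed at day 0. *Elavl3*, an RNA-binding protein of neurons, was at 0.717 and 0.396 FPKM in WT_day0 and 2.02 and 2.27 in *Pcgf5*-/-_day0, then at 27.5 and 21.6 in WT_day6 and 8.08 and 7.33 in *Pcgf5*-/-_day6, with a contrast of -2.57 (SE 0.28, limma adjusted p = 0.0185). *Cotl1*, an actin-binding protein, was at 4.90 and 4.10 FPKM in WT_day0 and 11.8 and 16.6 in *Pcgf5*-/-_day0, then at 63.2 and 71.4 in WT and 31.7 and 44.3 in *Pcgf5*-/- cells, with a contrast of -2.28 (SE 0.30, limma adjusted p = 0.0243). *Fhl1*, a LIM domain protein on chromosome X, was at 11.8 and 12.6 FPKM in WT_day0 and 20.9 and 20.8 in *Pcgf5*-/-_day0. At day 6 it stood at 49.2 and 71.4 in WT and 14.2 and 18.8 in *Pcgf5*-/- cells, a contrast of -2.53 (SE 0.28, limma adjusted p = 0.0200). In *Elavl3*, *Cotl1* and *Fhl1* the order of the genotypes was reversed between the days with no overlap on either. The others of the lowest 12 were the angiotensin receptor *Agtr1a* (-2.57), the retinoic acid carrier *Crabp2* (-2.57), the Notch glycosyltransferase *Lfng* (-2.28), the axon growth gene *Dpysl5* (-2.27) and the neuronal membrane gene *Ctxn1* (-2.23), with limma adjusted p from 0.0243 to 0.0342. *Crabp2* was the most abundant of the 12, with 365 and 521 FPKM in WT_day6 against 90.3 and 149 in *Pcgf5*-/-_day6.

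**Figure D2:**
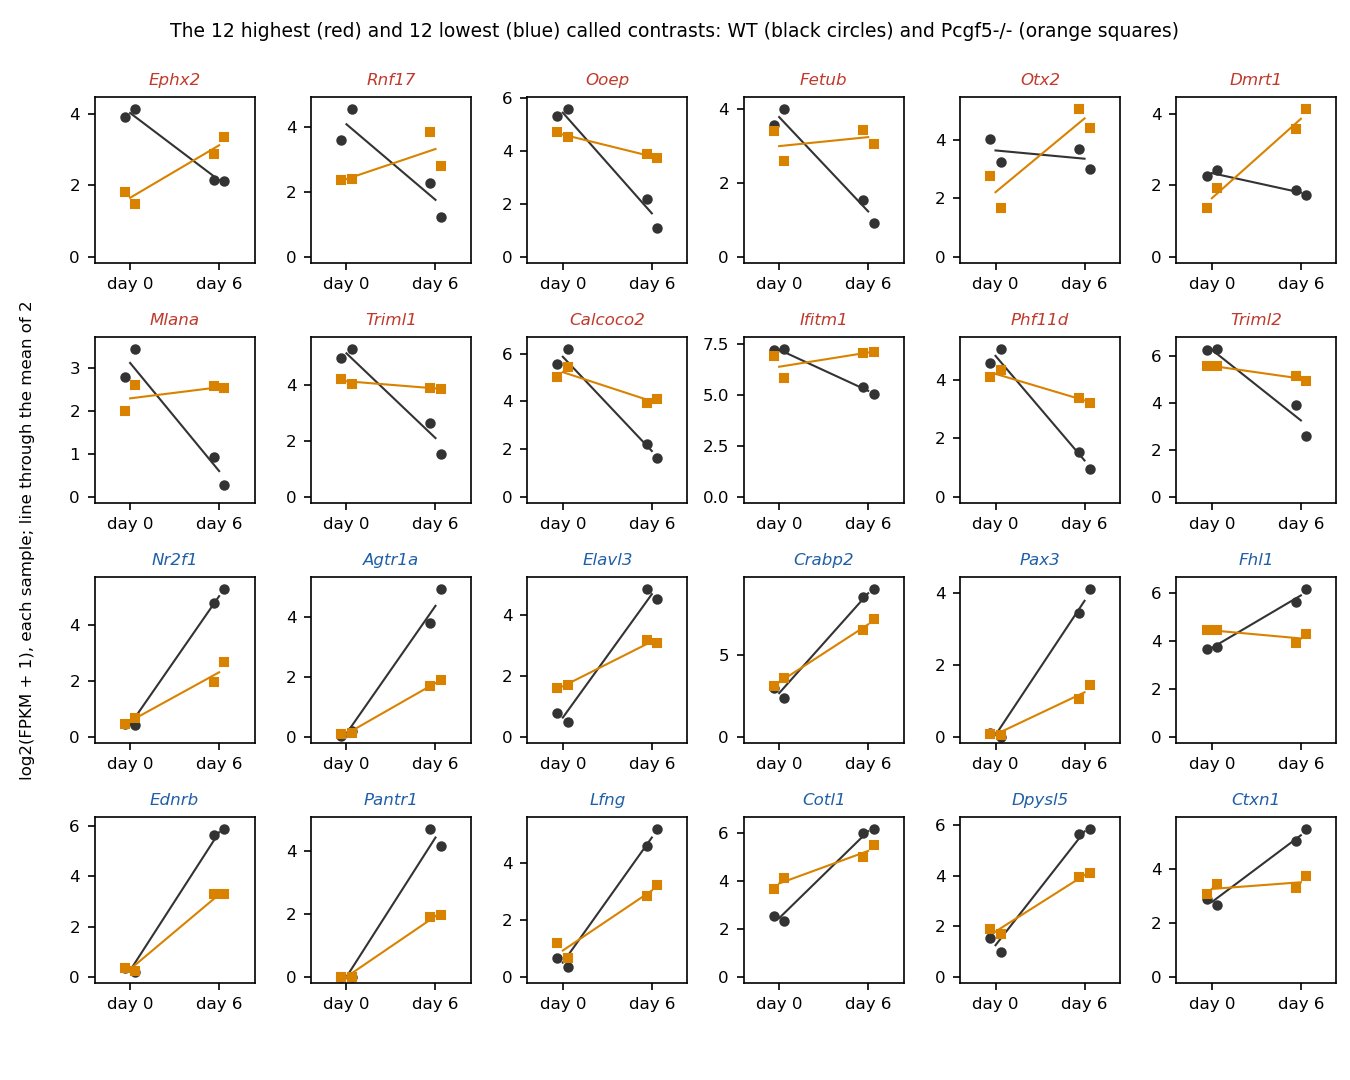
Log2(FPKM + 1) in every sample at day 0 and day 6 for the 12 highest (red titles) and 12 lowest (blue titles) called contrasts of genes with a locus of at least 300 bp, with WT as black circles, *Pcgf5*-/- as orange squares and lines through the mean of 2 samples. In the upper rows the WT line drops and crosses that of *Pcgf5*-/- cells, as for *Ephx2* from 14.1 and 16.6 to 3.45 and 3.40 FPKM, and in the lower rows the WT line climbs more steeply, as for *Nr2f1*.

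Genes of the naive pluripotent state had higher contrasts as a group. Of 18 naive pluripotency genes, all tested, 10 were called higher and 0 lower, and the median contrast of the list was 1.87 against -0.10 for all tested genes. At an unadjusted p under 0.05, 16 were higher and 0 lower. The 10 were *Nanog*, *Esrrb*, *Klf2*, *Tfcp2l1*, *Nr0b1*, *Nr5a2*, *Zfp42*, *Tcl1*, *Pecam1* and *Sox15*. The list's median genotype difference was 0.05 at day 0 and 1.96 at day 6, and it went down by a median of 3.35 in WT and 1.35 in *Pcgf5*-/- cells between the days. Leaving out single libraries left the list median between 1.61 and 2.28 but the count between 0 and 13, with 0 members called without WT_day0 replicate 2, without *Pcgf5*-/-_day0 replicate 2 or without either *Pcgf5*-/-_day6 sample.

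*Esrrb*, an orphan nuclear receptor of the naive network, was at 144 and 138 FPKM in WT_day0, 150 and 154 in *Pcgf5*-/-_day0, 7.77 and 5.45 in WT_day6 and 41.7 and 35.8 in *Pcgf5*-/-_day6. Its day 0 levels were close and its contrast was 2.29 (SE 0.23, limma adjusted p = 0.0141). *Nanog*, a core homeobox factor, was at 306 and 290 FPKM in WT_day0, 391 and 335 in *Pcgf5*-/-_day0, 43.0 and 22.2 in WT_day6 and 144 and 139 in *Pcgf5*-/-_day6, with a contrast of 1.88 (SE 0.36, limma adjusted p = 0.0396). It lies on chromosome 6, whose genes were higher in *Pcgf5*-/- cells on both days, an offset that the contrast takes out. The nuclear receptors *Nr0b1* and *Nr5a2* and the zinc finger gene *Zfp42* (Rex1) had contrasts of 2.33, 2.31 and 2.29 (limma adjusted p from 0.0361 to 0.0435). The other 8 members did not pass. *Dppa3* (Stella), a germ cell and oocyte gene, differed from the list in its course, with 9.72 and 18.03 FPKM in WT_day0, 14.7 and 8.41 in *Pcgf5*-/-_day0, 18.7 and 7.78 in WT_day6 and 63.2 and 86.3 in *Pcgf5*-/-_day6. Its contrast was 2.74 (SE 0.61, limma adjusted p = 0.0538).

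The factors shared by naive and later pluripotent cells moved less evenly. Of 18 general pluripotency genes, 2 were called higher and 0 lower, 13 were higher and 1 lower at an unadjusted p under 0.05, and the median contrast was 1.41. *Utf1*, a chromatin factor of pluripotent cells, was at 43.8 and 21.9 FPKM in WT_day6 and 154 and 139 in *Pcgf5*-/-_day6, above the 59.1 to 77.2 FPKM of the day 0 samples, with a contrast of 1.96 (limma adjusted p = 0.0390). *Mybl2*, a cell cycle factor, had a contrast of 0.85 (limma adjusted p = 0.0387). *Pou5f1* (Oct4) was at 333 and 374 FPKM in WT_day0, 339 and 351 in *Pcgf5*-/-_day0, 93.8 and 36.2 in WT_day6 and 254 and 228 in *Pcgf5*-/-_day6. Its contrast of 2.06 had an SE of 0.50 and did not pass (limma adjusted p = 0.0645), with the WT_day6 replicates far apart. *Sox2*, which is a pluripotency and a neural factor, had a contrast of 0.38 (SE 0.15, limma adjusted p = 0.179) and stood between 98.3 and 175 FPKM in all samples.

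Formative and LIF pathway genes gave 2 calls in each list of 12, against 1.34% higher and 1.75% lower of all tested genes. Among 12 formative and primed epiblast genes, *Otx2* was called higher and *Sox3* lower, and the median contrast was 0.73. That median was 1.17 and 0.33 without WT_day6 replicates 1 and 2, and 0.28 and 1.23 without *Pcgf5*-/-_day6 replicates 1 and 2. *Sox3*, a neural SOX factor of the epiblast, was at 73.3 and 82.1 FPKM in WT_day6 and 39.6 and 37.1 in *Pcgf5*-/-_day6, with a contrast of -1.76 (limma adjusted p = 0.0310). *Fgf5*, the classical epiblast marker, was at 3.33 and 0.525 FPKM in WT_day6 and 8.19 and 2.15 in *Pcgf5*-/-_day6 and did not pass (contrast 1.01, limma adjusted p = 0.478). For *Fgf5*, replicate 1 was above replicate 2 in both genotypes at day 6, and the genotypes overlapped. Among 12 LIF-STAT3 genes, *Tfcp2l1* was higher (1.96) and the kinase *Jak2* lower (-1.28, limma adjusted p = 0.0484). *Jak2* had 23.2 and 32.1 FPKM in WT_day6 and 10.2 and 11.3 in *Pcgf5*-/-_day6, with all day 0 samples between 3.77 and 4.26. The ligand *Lif* (0.12) and its receptor *Lifr* (0.78) did not pass, and the list median of 0.48 was 0.31 without WT_day6 replicate 2.

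Neural progenitor genes had the lowest median contrast of the 37 lists. Of 26 tested, 12 were called lower and 0 higher, 21 were lower at an unadjusted p under 0.05, and the median contrast was -1.42. The list's genotype difference had a median of 0.02 at day 0 and -1.22 at day 6, and its members were higher at day 6 than at day 0 by a median of 3.69 in WT and 2.14 in *Pcgf5*-/- cells. Without WT_day0 replicate 2, *Pcgf5*-/-_day0 replicate 2 or either *Pcgf5*-/-_day6 sample, 0 members were called, while the list median stayed between -1.53 and -1.30 over all left-out libraries. The POU factors *Pou3f2* and *Pou3f3* had contrasts of -1.97 and -2.11 (limma adjusted p = 0.0253 and 0.0288). *Pou3f3* was at 26.7 and 22.1 FPKM in WT_day6 and 4.67 and 4.56 in *Pcgf5*-/-_day6, and below 0.6 in all day 0 samples. *Pax6*, a factor of the dorsal forebrain and eye, was at 60.3 and 65.9 FPKM in WT_day6 and 25.9 and 29.7 in *Pcgf5*-/-_day6 (contrast -1.38, limma adjusted p = 0.0491), and the intermediate filament gene *Nes* at 58.2 and 62.3 against 23.97 and 19.97 (contrast -1.35, limma adjusted p = 0.0315). The other called members were *Pax3*, *Sox3*, *Hes5*, *Sox11*, *Dach1*, *Msi1*, *Zbtb16* and *Meis1*.

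*Sox1*, an early neuroectoderm marker, was at 50.3 and 67.9 FPKM in WT_day6 and 22.7 and 28.3 in *Pcgf5*-/-_day6, and between 0.295 and 0.729 at day 0. Its contrast of -1.003 (SE 0.32, limma adjusted p = 0.115) did not pass. The neural cadherin *Cdh2*, at 84.5 and 97.5 FPKM in WT_day6 and 36.8 and 34.6 in *Pcgf5*-/-_day6, had a contrast of -1.75 (SE 0.47, limma adjusted p = 0.0792). For *Cdh2* the spread came from day 0, where *Pcgf5*-/-_day0 replicate 2 had 6.09 FPKM against 2.05 to 2.48 in the other samples.

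Genes of regional identity and of neurons followed the progenitor genes with fewer calls. Of 22 tested brain regional identity genes, 4 were lower (*Nr2f1*, *Irx5*, *Irx3* and *Irx2*) and *Otx2* was higher, with a median contrast of -0.91. *Irx5* and *Irx3*, Iroquois factors of the posterior brain and spinal cord that lie together on chromosome 8, had contrasts of -2.17 and -2.16 (limma adjusted p = 0.0243 and 0.0440). *Irx3* was at 53.6 and 69.6 FPKM in WT_day6 and 14.9 and 18.9 in *Pcgf5*-/-_day6. Otherwise than *Otx2*, then, the called regional genes lay below WT in *Pcgf5*-/- cells at day 6.

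Of 26 tested neuron genes, 3 were lower and 0 higher, with 17 lower at an unadjusted p under 0.05 and a median contrast of -1.25 that was -0.82 without WT_day6 replicate 1. They were *Elavl3*, the neuronal tubulin *Tubb3* and the splicing factor *Celf3*. *Tubb3* was at 33.8 and 43.7 FPKM in WT_day0, 50.5 and 65.7 in *Pcgf5*-/-_day0, 210 and 149 in WT_day6 and 96.7 and 85.4 in *Pcgf5*-/-_day6, with a contrast of -1.53 (SE 0.29, limma adjusted p = 0.0390). *Celf3* was below 0.14 FPKM in all day 0 samples and had a contrast of -1.42 (limma adjusted p = 0.0435). The microtubule gene *Dcx* stood at 16.7 and 5.14 FPKM in WT_day6 and 3.48 and 2.30 in *Pcgf5*-/-_day6 and did not pass (contrast -1.43, limma adjusted p = 0.202). None of 18 tested proneural factor genes passed by limma, with 9 lower at an unadjusted p under 0.05 and a median of -0.87 that was -0.52 without WT_day6 replicate 1. *Neurog1*, a proneural bHLH factor, had a contrast of -1.03 (limma adjusted p = 0.171). Of 31 tested axon guidance genes, 5 were lower and 0 higher, with a median of -1.08. They were the ephrins *Efna5* (-2.21), *Efnb3* (-2.01) and *Efna2*, the netrin *Ntn1* (-1.72) and its receptor *Unc5a*. *Ntn1* was at 10.3 and 9.91 FPKM in WT_day0, 12.5 and 10.3 in *Pcgf5*-/-_day0, 18.3 and 16.8 in WT_day6 and 5.75 and 4.70 in *Pcgf5*-/-_day6, so that its *Pcgf5*-/- level at day 6 lay below that of every day 0 sample.

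In the neural crest and border list, *Ednrb* and *Pax3* were lower and *Tfap2c*, a factor of trophoblast, germ cells and the neural plate border, was higher among 13 tested, with a median of -0.55. The median was -0.32 without WT_day0 replicate 2, -0.30 without *Pcgf5*-/-_day0 replicate 2, -0.28 without *Pcgf5*-/-_day6 replicate 2 and -0.31 with quantile normalization. *Tfap2c* was at 19.4 and 16.4 FPKM in WT_day0, 20.6 and 18.1 in *Pcgf5*-/-_day0, 5.84 and 6.69 in WT_day6 and 17.6 and 24.7 in *Pcgf5*-/-_day6. *Pcgf5*-/- cells thus held about the same level on both days, and the contrast was 1.49 (SE 0.27, limma adjusted p = 0.0347).

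**Figure D3:**
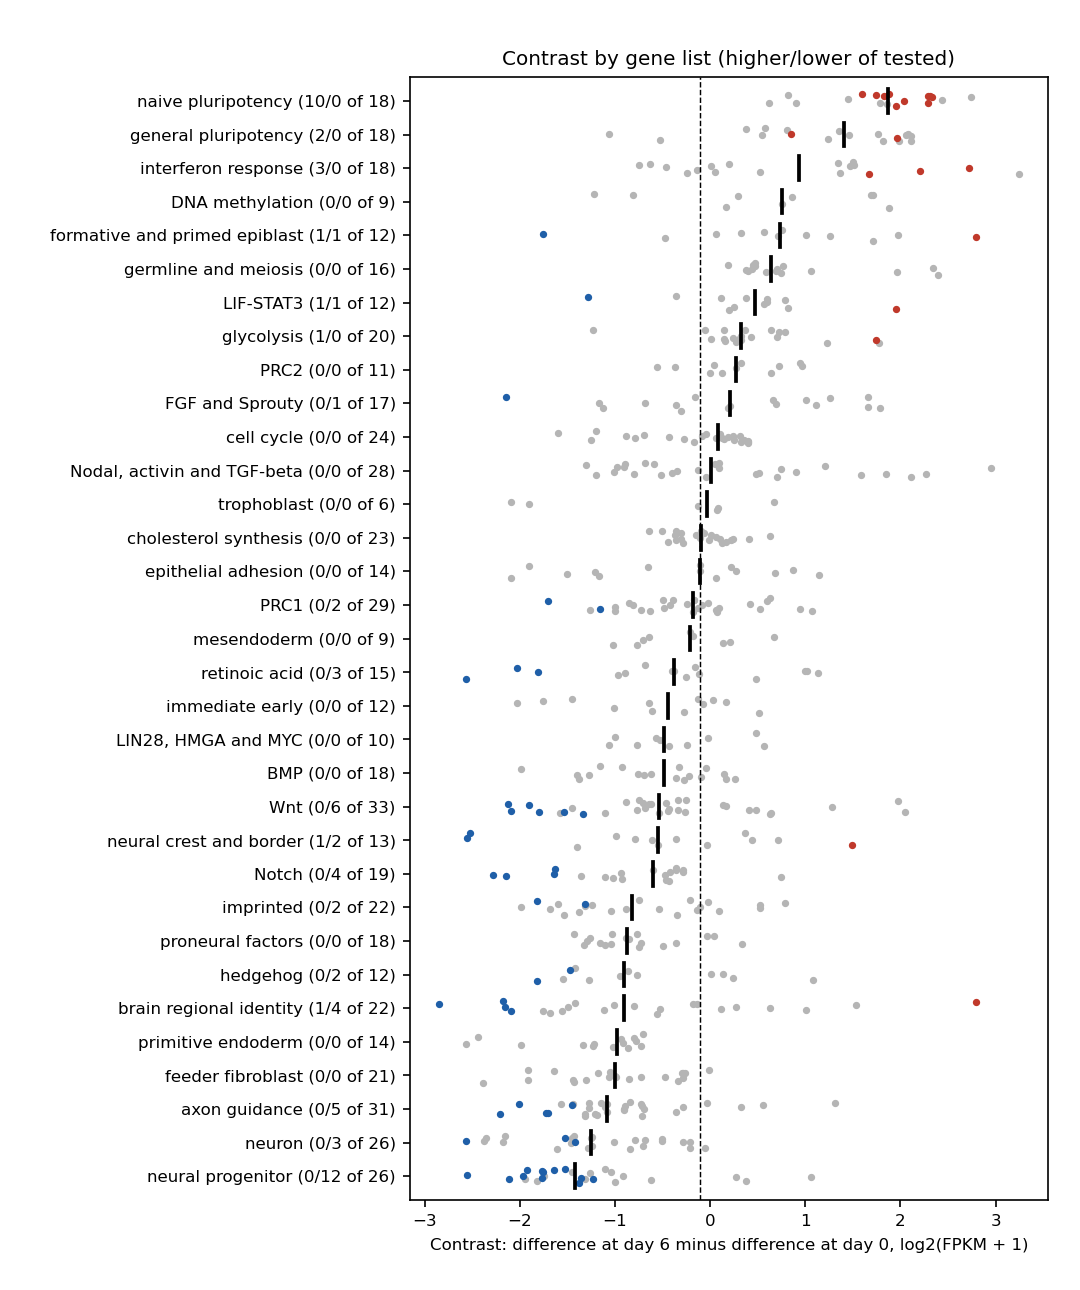
Contrast of each tested member (log2(FPKM + 1)) of the 33 fixed gene lists, with higher calls in red, lower calls in blue, the list median as a black bar and the median of all tested genes (-0.10) as a dashed line. Labels give the number called higher and lower of those tested, and the naive pluripotency list (median 1.87) and the neural progenitor list (median -1.42) stand at the ends.

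Wnt signals pass through Frizzled receptors to beta-catenin, and 6 of 33 tested Wnt genes were lower and 0 higher, with a median of -0.54. The median was -0.34 without *Pcgf5*-/-_day0 replicate 2, -0.36 with median centring and -0.85 with a pseudocount of 0.01. The Frizzled receptor *Fzd9* was at 2.18 and 1.61 FPKM in WT_day0, 4.43 and 4.32 in *Pcgf5*-/-_day0, 3.76 and 5.42 in WT_day6 and 1.47 and 1.26 in *Pcgf5*-/-_day6 (contrast -2.13, SE 0.30, limma adjusted p = 0.0251). *Fzd9* was thus above WT in *Pcgf5*-/- cells at day 0 and below it at day 6, with no overlap. *Fzd3* (-2.096) and the secreted antagonist *Sfrp2* (-1.91) were also lower, the latter at 147 and 142 FPKM in WT_day6 and 53.6 and 68.7 in *Pcgf5*-/-_day6, as were *Fzd1*, *Wnt7a* and *Nkd1*. The ligands *Wnt1* (-0.64) and *Wnt3* (0.14), both at or below 3.02 FPKM, did not pass.

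Notch is a receptor that, bound by Delta or Jagged ligands, turns on *Hes* repressors. Of 19 tested genes, 4 were lower and 0 higher, namely the glycosyltransferases *Lfng* and *Mfng* and the targets *Hes5* and *Hes3*, with a list median of -0.60 that was -1.002 without *Pcgf5*-/-_day6 replicate 1. *Hes5* was at 27.9 and 28.2 FPKM in WT_day6 and 8.14 and 8.57 in *Pcgf5*-/-_day6, and at most 0.0575 at day 0 (contrast -1.64, limma adjusted p = 0.0260). *Hes3* had a contrast of -2.15 (limma adjusted p = 0.0243). The ligand *Dll1*, at 24.5 and 18.8 FPKM in WT_day6 and 7.76 and 7.40 in *Pcgf5*-/-_day6, did not pass (contrast -1.36, limma adjusted p = 0.0585), nor did *Dll3* (-0.60). In the hedgehog list the co-receptor *Boc* (-1.82) and the effector *Gli3* (-1.47) were lower of 12 tested, with a median of -0.90, while the receptor and target *Ptch1* (0.14) did not pass. *Boc* was at 22.3 and 28.6 FPKM in WT_day6 and 6.04 and 6.97 in *Pcgf5*-/-_day6.

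Retinoic acid, made by retinol and retinal dehydrogenases and bound by RAR receptors, drives posterior neural fates. Of 15 tested genes 3 were lower and 0 higher, the carriers *Crabp2* and *Crabp1* and the receptor *Rarb*, with a median of -0.38. The median was -0.19 without WT_day0 replicate 2, -0.16 and -0.20 with quantile normalization and median centring, and -0.73 with a pseudocount of 0.01. *Crabp1* was at 850 and 949 FPKM in WT_day6 and 348 and 452 in *Pcgf5*-/-_day6 (contrast -2.03, limma adjusted p = 0.0305), and *Rarb* at 8.14 and 7.25 against 1.24 and 1.43 (contrast -1.81, limma adjusted p = 0.0269). The enzymes *Rdh10* (-0.69) and *Dhrs3* (0.99) did not pass. Of 17 tested FGF and Sprouty genes, the receptor *Fgfr3* was lower, at 10.6 and 15.1 FPKM in WT_day6 and 1.996 and 2.68 in *Pcgf5*-/-_day6 (contrast -2.14, limma adjusted p = 0.0253). The ligand *Fgf4*, a target of the pluripotency factors, lay the other way, with 9.35 and 2.59 FPKM in WT_day6 and 32.8 and 16.96 in *Pcgf5*-/-_day6, and did not pass (contrast 1.78, limma adjusted p = 0.170).

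Nodal, activin and TGF-beta ligands signal through SMAD2 and SMAD3, and *Lefty1* and *Lefty2* are both targets and inhibitors of Nodal. None of 28 tested genes of this list passed by limma, although 7 were higher and 5 lower at an unadjusted p under 0.05, and the median contrast was 0.01. Under other settings members were called, 2 higher with quantile normalization, median centring or the replicate block, 1 higher without WT_day0 replicate 1, 4 higher without WT_day6 replicate 1, and 7 higher and 2 lower with a replicate block for each day. The sign of the median changed with the library left out. *Nodal* was at 37.2 and 28.6 FPKM in WT_day0, 41.1 and 30.2 in *Pcgf5*-/-_day0, 6.78 and 3.61 in WT_day6 and 21.03 and 16.1 in *Pcgf5*-/-_day6, with a contrast of 1.59 (SE 0.39, limma adjusted p = 0.0666). The ligand *Gdf3* had a contrast of 2.27 (SE 0.55, limma adjusted p = 0.0646). *Lefty2* was at 92.5 and 137 FPKM in WT_day0, 129 and 183 in *Pcgf5*-/-_day0, 11.9 and 4.79 in WT_day6 and 48.5 and 35.5 in *Pcgf5*-/-_day6 (contrast 1.85, SE 0.53, limma adjusted p = 0.0903). *Lefty1* had no such common day 0 level. It was at 6.97 and 25.4 FPKM in WT_day0, 5.75 and 9.07 in *Pcgf5*-/-_day0, 31.1 and 13.8 in WT_day6 and 110 and 81.8 in *Pcgf5*-/-_day6 (contrast 2.95, SE 0.78, limma adjusted p = 0.0769). For *Nodal*, *Gdf3*, *Lefty1* and *Lefty2* the genotypes did not overlap at day 6, as in 8213 of the 13214 tested genes. The contrast carried the spread of all 4 conditions.

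BMP signals act through SMAD1 and SMAD5 on the *Id* genes. None of 18 tested genes passed by limma, with 6 lower and 0 higher at an unadjusted p under 0.05 and a median of -0.49. The median was -0.76 without WT_day6 replicate 1, -0.77 with a pseudocount of 0.01 and -0.31 with median centring. *Id1* was at 16.98 and 20.5 FPKM in WT_day6 and 10.5 and 6.78 in *Pcgf5*-/-_day6, and between 7.52 and 11.2 at day 0 (contrast -1.37, SE 0.31, limma adjusted p = 0.0545). *Id3* was at 20.98 and 50.6 in WT_day6 and 12.9 and 7.92 in *Pcgf5*-/-_day6 (contrast -1.98, SE 0.62, limma adjusted p = 0.109). The ligand *Bmp4* had a contrast of -0.10 with an SE of 0.51, so that a wide range of contrasts could not be told apart from 0 for it.

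Among 29 PRC1 genes, *Yaf2* and *Phc2* were lower and 0 higher, against 1.75% lower of all tested genes, and the median was -0.18. *Yaf2*, a subunit shared by the non-canonical complexes, was at 2.94 and 3.39 FPKM in WT_day0, 6.60 and 9.39 in *Pcgf5*-/-_day0, 18.5 and 19.9 in WT_day6 and 12.4 and 11.97 in *Pcgf5*-/-_day6 (contrast -1.71, SE 0.27, limma adjusted p = 0.0288). *Yaf2* was thus above WT before and below WT after differentiation. *Phc2*, a subunit of canonical PRC1, was at 58.3 and 65.5 FPKM in WT_day6 and 34.6 and 38.1 in *Pcgf5*-/-_day6 (contrast -1.15, limma adjusted p = 0.0410). Of the other PCGF genes, *Bmi1* (PCGF4) came nearest to the threshold, with 9.77 to 10.6 FPKM in the day 0 samples, 32.6 and 22.5 in WT_day6 and 14.6 and 12.4 in *Pcgf5*-/-_day6 (contrast -0.99, SE 0.27, limma adjusted p = 0.0817). *Pcgf3*, the closest paralog of *Pcgf5*, had a contrast of -0.17 (SE 0.33). *Pcgf1* (0.06), *Pcgf2* (-0.49) and *Pcgf6* (-0.02) did not pass. *Pcgf2* lies on chromosome 11 and was above WT in *Pcgf5*-/- cells on both days. None of 11 PRC2 genes passed by limma, with 4 higher at an unadjusted p under 0.05, and *Ezh2* had -0.37 and *Ezh1* 0.64 (limma adjusted p = 0.239 and 0.155).

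Interferon response genes stood on the higher side, with 3 of 18 tested called higher and 0 lower, 9 higher at an unadjusted p under 0.05, and a median of 0.94. The median was 0.53 without the genes of chromosomes 6 and 11 and 0.37 with a pseudocount of 0.01. *Psmb8*, an immunoproteasome subunit, was below 0.4 FPKM in all day 0 samples, at 1.44 and 0.778 in WT_day6 and at 8.74 and 6.72 in *Pcgf5*-/-_day6 (contrast 2.21, SE 0.34, limma adjusted p = 0.0288). *Ifitm3* and *Ifitm1* instead were abundant at day 0 and lower at day 6 in WT. *Ifitm3* was at 150 and 212 FPKM in WT_day0, 106 and 142 in *Pcgf5*-/-_day0, 52.1 and 50.4 in WT_day6 and 106 and 122 in *Pcgf5*-/-_day6 (contrast 1.67, limma adjusted p = 0.0305). Both IFITM genes are also known from primordial germ cells. The DNA sensor *Zbp1* was at 2.05 and 0.322 FPKM in WT_day6 and 24.05 and 8.08 in *Pcgf5*-/-_day6 (contrast 3.24, SE 0.73, limma adjusted p = 0.0542), and the classical interferon target *Isg15* had a contrast of 0.20 (limma adjusted p = 0.874).

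Germline and DNA methylation genes had higher medians but no call. None of 16 tested germline and meiosis genes passed by limma, with 4 higher at an unadjusted p under 0.05 and a median of 0.64. The median was 1.004 and 0.32 without WT_day6 replicates 1 and 2 and 0.28 without *Pcgf5*-/-_day6 replicate 1, and 1 member was called without WT_day6 replicate 1. *Dazl* (0.74) and *Ddx4* (0.45) were above WT in *Pcgf5*-/- cells on both days. None of 9 DNA methylation genes passed by limma, with 2 higher and 2 lower at an unadjusted p under 0.05 and a median of 0.75. That median lay between 0.32 and 0.39 without any of WT_day0 replicate 2, *Pcgf5*-/-_day0 replicate 1, WT_day6 replicate 2 or *Pcgf5*-/-_day6 replicate 1, and at 1.18 without *Pcgf5*-/-_day6 replicate 2. *Tet1*, which oxidizes methylcytosine, was at 9.79 and 4.83 FPKM in WT_day6 and 31.2 and 14.8 in *Pcgf5*-/-_day6 (contrast 1.88, SE 0.52, limma adjusted p = 0.0868), while *Dnmt1* had 0.17 and *Dnmt3a* 0.75.

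Imprinted genes, expressed from a single parental copy, had a median contrast of -0.82 over 22 genes with 2 lower and 0 higher. The median was -0.49 without WT_day0 replicate 2, -0.51 without *Pcgf5*-/-_day0 replicate 2 and -0.54 without the genes of chromosomes 6 and 11. *Mest* was at 18.6 and 23.9 FPKM in WT_day0 and 46.6 and 54.7 in *Pcgf5*-/-_day0, but at 276 and 351 in WT_day6 and 281 and 303 in *Pcgf5*-/-_day6. Its contrast of -1.31 (SE 0.24, limma adjusted p = 0.0348) therefore came from day 0 alone, where the genotypes did not overlap, since they did overlap at day 6. *Nnat* was at 3.65 and 1.85 FPKM in WT_day0, 5.76 and 4.71 in *Pcgf5*-/-_day0, 337 and 358 in WT_day6 and 142 and 200 in *Pcgf5*-/-_day6 (contrast -1.81, limma adjusted p = 0.0396). *Igf2* and *H19* were highest at day 0 in *Pcgf5*-/-_day0 replicate 2, at 65.5 and 70.6 FPKM, the library with the highest feeder sum, and did not pass (contrasts -1.99 and -0.54). The part of feeder RNA in these values was not tested. *Hist1h4j* was the called gene among 60 tested replication-dependent histone genes, at 1.19 and 1.10 FPKM in WT_day0, 4.50 and 6.02 in *Pcgf5*-/-_day0 and 1.13 to 2.29 in the day 6 samples (contrast -1.63, limma adjusted p = 0.0485). Here too the difference lay at day 0. Such transcripts mostly lack a poly(A) tail and share sequence with near copies, so that in poly(A)-selected libraries this value is uncertain.

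Metabolic and growth lists gave 0 or 1 call each, against 1.34% higher and 1.75% lower of all tested genes. Of 20 glycolysis genes, 18 had a positive contrast, 5 were higher at an unadjusted p under 0.05, the median was 0.33, and *Ldhb* was higher, at 58.1 and 48.6 FPKM in WT_day6 and 132 and 212 in *Pcgf5*-/-_day6 against 120 to 172 at day 0 (contrast 1.74, limma adjusted p = 0.0439), while the glucose transporters *Slc2a1* (0.24) and *Slc2a3* (-0.05) did not pass. Of 89 tested oxidative phosphorylation genes *Cox7a1*, a tissue-restricted cytochrome c oxidase subunit, was higher, at 42.7 and 49.4 FPKM in WT_day0, 44.0 and 33.2 in *Pcgf5*-/-_day0, 4.61 and 4.24 in WT_day6 and 18.4 and 29.6 in *Pcgf5*-/-_day6 (contrast 2.43, SE 0.33, limma adjusted p = 0.0243). The list median was 0.11. Of 84 cytosolic ribosomal protein genes *Rps4l* was higher (1.14, limma adjusted p = 0.0435), a copy-like gene whose reads may be shared with other copies and whose value is uncertain, with 78 of the 84 positive and a list median of 0.24. That median was 0.05 with quantile normalization, 0.42 with median centring, 0.15 without WT_day0 replicate 2, and 0.38 and 0.07 without *Pcgf5*-/-_day6 replicates 1 and 2. The glycolysis median was 0.21 without WT_day0 replicate 1, 0.51 without WT_day0 replicate 2, 0.51 without *Pcgf5*-/-_day0 replicate 1 and 0.51 with median centring. By limma 0 genes passed among 24 cell cycle, 23 cholesterol synthesis, 77 mitochondrial ribosomal protein and 10 LIN28, HMGA and MYC genes. Their medians were 0.08, -0.10, 0.04 and -0.48, with 6, 2, 10 and 3 at an unadjusted p under 0.05. Over all 13214 tested genes, 3064 were at an unadjusted p under 0.05. Among 12 immediate early genes, 0 passed and 4 were at an unadjusted p under 0.05, with -0.64 for *Fos*.

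Markers of other cell types gave no call. By limma 0 of 21 feeder fibroblast genes passed, and 4 were lower at an unadjusted p under 0.05, against 1923 of all 13214 tested. All 21 had a negative contrast, and the median was -1.003. That median was -0.49 without *Pcgf5*-/-_day0 replicate 2 and -0.47 without WT_day0 replicate 2, and -1.58 and -1.52 without the replicates 1 of these conditions. *Col1a1*, the main fibroblast collagen, was at 117 and 64.6 FPKM in WT_day0, 73.8 and 263 in *Pcgf5*-/-_day0, 6.86 and 11.3 in WT_day6 and 3.09 and 3.27 in *Pcgf5*-/-_day6. Primitive endoderm genes had a median of -0.97 over 14 tested with 0 passing by limma and 2 at an unadjusted p under 0.05, and this rested on WT_day6 replicate 1. *Gata4* was at 10.6 FPKM in that library and between 0.404 and 3.89 in the other 7, and without it the list median was -0.18. Of 9 mesendoderm, 6 trophoblast and 14 epithelial adhesion genes, 0 passed by limma, with 0, 2 and 3 at an unadjusted p under 0.05. The mesoderm factor *T* stayed between 0.215 and 2.05 FPKM in all samples. *Cdh1*, the epithelial cadherin, was at 34.7 and 33.3 FPKM in WT_day6 and 81.2 and 64.3 in *Pcgf5*-/-_day6 (contrast 1.14, SE 0.26, limma adjusted p = 0.0569).

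Some genes differed between the genotypes in the same direction on both days. There were 36 such offset genes, whose genotypes did not overlap on either day and differed by at least 1 in the same direction, 29 of them higher and 7 lower in *Pcgf5*-/- cells. Of these, 14 lay on chromosome 11 and 6 on chromosome X, which held 1086 and 494 of the 13214 tested genes. Lack of overlap was common with 2 samples per condition. It held for 6331 of the tested genes at day 0, 8213 at day 6 and 3981 on both days. *Scml2*, a germline Polycomb gene on chromosome X, was at 0.626 and 0.563 FPKM in WT_day0, 8.43 and 3.97 in *Pcgf5*-/-_day0, 1.23 and 0.893 in WT_day6 and 8.93 and 5.47 in *Pcgf5*-/-_day6, with differences of 2.101 and 1.96. *Cyct*, the testis cytochrome c, had differences of 1.52 at day 0 and 2.61 at day 6, and *Bst2*, an interferon-induced restriction factor, 1.38 on both days, at 84.2 and 41.1 FPKM in *Pcgf5*-/-_day0 against 26.5 and 18.4 in WT_day0. *Tuba3b*, *Atp1b2* and *Stra8* had differences of 1.44, 1.38 and 1.38 at day 0 and of 2.11, 1.72 and 2.41 at day 6. *Stra8*, the gatekeeper of meiosis and a retinoic acid target, varied most between replicates, with 12.5 and 71.2 FPKM in *Pcgf5*-/-_day6. None of the 36 passed for the contrast by limma. They were chosen for differences in the same direction on both days, which favours small contrasts, so this is no result. Their differences were not always alike on the 2 days. *Cyct* had a contrast of 1.09 (SE 0.44, limma adjusted p = 0.189), and *Pcgf5*, itself one of the 36, had the largest in size, -1.26.

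Genotypes that did not overlap on either day and differed by at least 0.5 lay in the same order in 541 of the 13214 tested genes. In 233 genes they lay in opposite orders. In 98 of them *Pcgf5*-/- cells were below WT at day 0 and above it at day 6, and in 135 it was the reverse. Of these, 47 and 58 were called, against 1.34% higher and 1.75% lower of all tested genes. Genes chosen for opposite orders on the 2 days have large contrasts by that choice, so these counts are no result. Besides *Rnf17* and *Otx2*, the largest such pairs of differences belonged to *D1Pas1*, *Gm6792*, *Gm14393* and *Rnaset2b*. *D1Pas1*, a testis RNA helicase gene related to *Ddx3x*, was at 2.91 and 5.24 FPKM in WT_day0, 1.18 and 1.11 in *Pcgf5*-/-_day0, 0.685 and 0.288 in WT_day6 and 2.81 and 2.09 in *Pcgf5*-/-_day6 (contrast 2.42, SE 0.37, limma adjusted p = 0.0288). *Gm6792* had a contrast of 2.26 (SE 0.36, limma adjusted p = 0.0289), and *Gm14393* of 2.18 (limma adjusted p = 0.0542). *D1Pas1*, *Gm6792* and *Gm14393* have relatives of similar sequence and their values are uncertain. *Rnaset2b* has a near-identical copy and several loci in the files, and its replicates differed from near 0 to 1.48 FPKM in WT_day0, so its contrast of -3.68 is uncertain.

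The chromosome offsets were not seen in the median contrast of these chromosomes. Over 643 tested genes of chromosome 6 the median genotype difference was 0.41 at day 0 and 0.37 at day 6, and over 1086 genes of chromosome 11 it was 0.48 and 0.38. On the other 18 chromosomes with enough genes the medians were 0.04 to 0.12 at day 0 and -0.06 to 0.03 at day 6. The median contrast was -0.08 for chromosome 6 and -0.13 for chromosome 11, within the -0.15 to -0.06 of the others. Relative to the other chromosomes, the level of chromosome 11 lay between -0.25 and -0.16 in the 4 WT samples and between 0.19 and 0.23 in the 4 *Pcgf5*-/- samples, so that each sample carried the offset of its genotype. On chromosome 11, 14 genes were higher and 18 lower (1.29% and 1.66%), and on chromosome 6 there were 6 and 7 (0.93% and 1.09%), against 1.34% and 1.75% of all tested genes. A fit without the genes of both chromosomes called 163 higher and 218 lower of 11485 genes.

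When all tested genes were ranked by their change in WT, the medians of *Pcgf5*-/- cells lay nearer to 0 than those of WT. The tested genes were ranked by their change from day 0 to day 6 in WT replicate 1 and split into 10 bins of 1321 or 1322 genes. In bin 10, with the highest change, the median change was 2.03 in WT replicate 2, but 1.31 and 1.15 in *Pcgf5*-/- replicates 1 and 2. In bin 1 it was -1.43 in WT replicate 2 and -0.90 and -0.99 in the *Pcgf5*-/- replicates. In the middle bins all were near 0, with 0.10 in WT replicate 2 and 0.04 and 0.07 in the *Pcgf5*-/- replicates in bin 5. Both *Pcgf5*-/- replicates lay nearer to 0 than WT replicate 2 in all 10 bins. Replicates of different days share only a number, so that a change within a number is a difference of 2 separate samples. A ranking by WT pulls the medians of the other genotype towards 0 wherever the genotypes change different genes. No ranking by a *Pcgf5*-/- replicate was made, so the bins cannot show a smaller change of *Pcgf5*-/- cells as a whole. These medians are given as a description with no test.

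**Figure D4:**
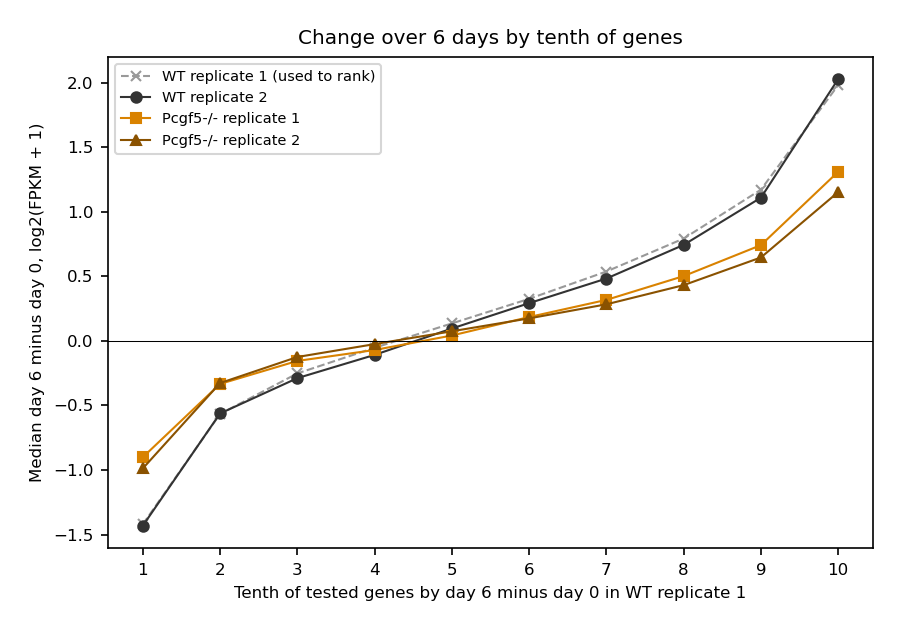
Median change from day 0 to day 6 (log2(FPKM + 1)) in 10 bins of the tested genes ranked by WT replicate 1, for WT replicate 2 (black), both *Pcgf5*-/- replicates (orange and brown) and the ranking sample pair (grey crosses). Both *Pcgf5*-/- lines are flatter than that of WT replicate 2, with 1.31 and 1.15 against 2.03 in bin 10.

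Promoters of the higher genes held fewer CG dinucleotides at the median than those of the lower genes, given here as a description. CpG-rich promoters are typical of developmental and housekeeping genes and are where Polycomb complexes are found in mESCs, while CpG-poor promoters are typical of tissue-restricted genes. CG dinucleotides were counted in the 300 bases from 250 before to 50 after the gene start (both the genome and the GENCODE M1 gene starts on NCBIM37, the build of the files), and 12125 of the 13214 tested genes (91.8%) had such a window. The median window held 19 CG over all tested genes, 9 over the higher genes and 21.5 over the lower genes. Of 156 higher genes with a window 48 (30.8%) held at most 5 CG, against 7.41% of the 216 lower genes and 11.2% of all tested genes. From windows with at most 5 CG to those with over 30, the share of higher genes went from 3.53% to 0.21%. The share of lower genes was 1.18% and 2.92% in these end classes. In the classes between, it lay from 1.36% to 1.87% with no steady rise. Between the end classes the median genotype difference at day 6 went from 0.09 to -0.08, and that at day 0 from 0.07 to 0.10. A CG count is a description of the window, and its link with the contrast was not tested.

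**Figure D5:**
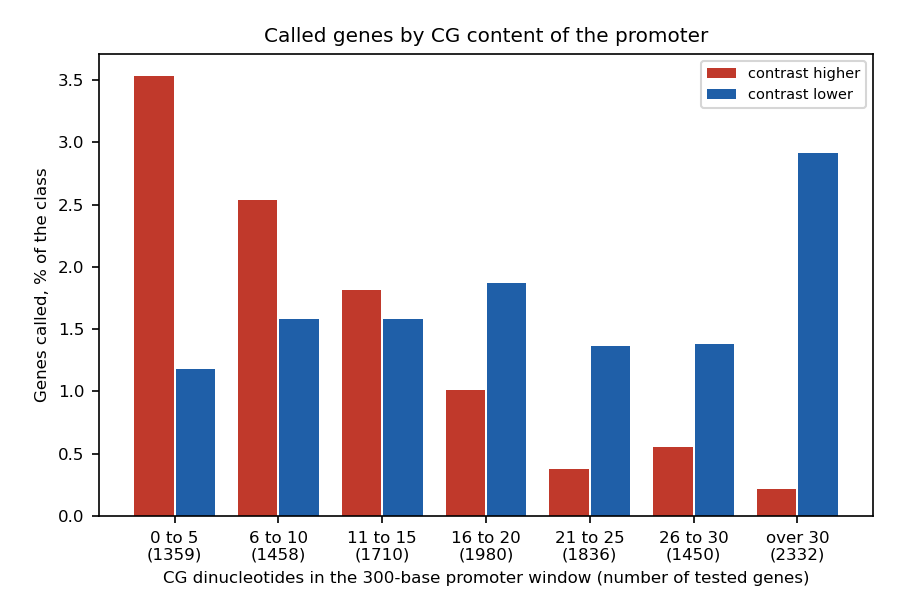
Share of tested genes called higher (red) and lower (blue) in the contrast, by the number of CG dinucleotides in the promoter window of 300 bases, with the number of genes of each class in brackets. The higher share is 3.53% in the class with at most 5 CG and 0.21% in that with over 30, where the lower share is 2.92%.

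The 250 bases before the start are shown for 2 promoters with few CG among the 12 highest called contrasts (*Triml1* with the fewest in its window, and *Mlana*, which had as few as *Ifitm1*) and for 1 CG-rich promoter among the 12 lowest called ones, 5′ to 3′ on the gene's strand, with CG in capitals and counted in the stretch shown. *Triml1* (chr8:44226841-44227090, minus strand, 2 CG) and *Mlana* (chr19:29772161-29772410, plus strand, 2 CG) had higher contrasts, and *Elavl3* (chr9:21856468-21856717, minus strand, 20 CG) a lower one. Over the 11 genes of each 12 that had a window, the count in 300 bases ranged from 2 to 17 with a median of 6 at the higher end and from 8 to 40 with a median of 19 at the lower end, so that both ends overlapped.
Triml1: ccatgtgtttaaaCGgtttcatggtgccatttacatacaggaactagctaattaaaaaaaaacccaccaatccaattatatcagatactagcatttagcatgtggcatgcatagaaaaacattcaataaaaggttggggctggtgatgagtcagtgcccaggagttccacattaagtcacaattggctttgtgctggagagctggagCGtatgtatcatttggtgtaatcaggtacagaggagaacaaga
Mlana: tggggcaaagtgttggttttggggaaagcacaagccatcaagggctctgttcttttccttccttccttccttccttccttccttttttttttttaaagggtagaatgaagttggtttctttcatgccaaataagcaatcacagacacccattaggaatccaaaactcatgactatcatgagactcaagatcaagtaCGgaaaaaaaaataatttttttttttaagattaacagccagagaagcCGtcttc
Elavl3: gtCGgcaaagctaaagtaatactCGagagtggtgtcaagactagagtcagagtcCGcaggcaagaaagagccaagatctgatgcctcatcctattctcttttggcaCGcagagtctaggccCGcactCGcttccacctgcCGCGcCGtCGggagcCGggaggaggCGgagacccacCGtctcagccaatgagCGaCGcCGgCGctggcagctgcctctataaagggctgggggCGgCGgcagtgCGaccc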

How the data were processed

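Poly(A)-selected RNA was sequenced from 8 samples in 4 conditions, 2 per condition. The authors trimmed the reads, removed identical duplicates, aligned them to mm9 with TopHat2 (version 2.0.4) and computed FPKM values for each sample with Cufflinks (version 2.1.1), and these FPKM values were deposited. The versions are from the submitters' processing notes, and the annotation used for counting is not given in the sources used here. FPKM values carry no counts, so that counting intervals could not be given. Duplicate removal can lower the values of the most abundant genes.

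Of 24849 listed genes, 5057 were at 0 in all samples and 13214 had a mean FPKM over 1 in at least 1 condition and were tested. The contrast was fitted to log2(FPKM + 1) with limma (version 3.58.1, R 4.3.3, variance trend), with 4 residual degrees of freedom and Benjamini-Hochberg adjustment over all tested genes at 0.05. The scale understates changes of low genes. The script was tested on simulated data. Replicates of a condition had Pearson's r of 0.972 to 0.974 across genes.

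The comparison, gene lists and tests were chosen with earlier results of these data known. Named genes were the 12 highest and 12 lowest called contrasts with a locus of at least 300 bp and all 4 single-sample differences of day 6 beyond those of day 0, up to 3 called members per list and direction, the first 2 members of a list where not called, up to 6 offset and 6 crossing genes, and the PCGF genes. *Lefty1*, *Lefty2*, *Id1*, *Id3*, *Cdh2*, *Dppa3*, *Tet1*, *Pax6* and *Nes*, and called list members named without values, were chosen after their values were seen. Alternatives were other pseudocounts (0.1 and 0.01), filters, scalings, variance models, replicate blocks, leaving out chromosomes 6 and 11, and leaving out each sample. Some items are not reported here.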

Additional observations from a re-analysis of the deposited data

Results flagged for a closer look

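For 68 named genes the genotype difference on day 6 differed from that on day 0 by the test of the difference itself (limma, adjusted p under 0.05, n = 2 samples per condition), and their contrasts on the log2(FPKM + 1) scale follow. Since the genes were chosen partly by this test, their number is no result.

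Among early embryo, germline and pluripotency genes with a higher contrast, the values were 3.26 for *Rnf17*, 2.98 for *Ooep*, 2.80 for *Otx2*, 2.77 for *Dmrt1*, 2.76 for *Triml1*, 2.46 for *Triml2* and 2.42 for *D1Pas1*. They were 2.33 for *Nr0b1*, 2.31 for *Nr5a2*, 2.29 for *Zfp42*, 2.29 for *Esrrb*, 1.96 for *Utf1*, 1.96 for *Tfcp2l1*, 1.88 for *Nanog*, 1.49 for *Tfap2c* and 0.85 for *Mybl2*. Among interferon and other genes they were 3.36 for *Ephx2*, 2.81 for *Fetub*, 2.77 for *Mlana*, 2.73 for *Calcoco2*, 2.72 for *Ifitm1*, 2.66 for *Phf11d*, 2.43 for *Cox7a1*, 2.26 for *Gm6792*, 2.21 for *Psmb8*, 1.74 for *Ldhb*, 1.67 for *Ifitm3* and 1.14 for *Rps4l*.

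Among transcription factors and other genes of neural progenitors with a lower contrast, the values were -2.84 for *Nr2f1*, -2.55 for *Pax3*, -2.51 for *Pantr1*, -2.17 for *Irx5*, -2.16 for *Irx3*, -2.11 for *Pou3f3*, -1.97 for *Pou3f2*, -1.76 for *Sox3*, -1.38 for *Pax6* and -1.35 for *Nes*. Among neuron and axon genes they were -2.57 for *Elavl3*, -2.27 for *Dpysl5*, -2.23 for *Ctxn1*, -2.21 for *Efna5*, -2.01 for *Efnb3*, -1.72 for *Ntn1*, -1.53 for *Tubb3* and -1.42 for *Celf3*.

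Among signalling genes the contrast was -2.57 for *Agtr1a*, -2.57 for *Crabp2*, -2.52 for *Ednrb*, -2.28 for *Lfng*, -2.15 for *Hes3*, -2.14 for *Fgfr3*, -2.13 for *Fzd9*, -2.096 for *Fzd3*, -2.03 for *Crabp1*, -1.91 for *Sfrp2*, -1.82 for *Boc*, -1.81 for *Rarb*, -1.64 for *Hes5*, -1.47 for *Gli3* and -1.28 for *Jak2*. In the remaining genes it was -2.53 for *Fhl1*, -2.28 for *Cotl1*, -1.81 for *Nnat*, -1.71 for *Yaf2*, -1.63 for *Hist1h4j*, -1.31 for *Mest* and -1.15 for *Phc2*.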

How the results depend on the processing

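The numbers of called genes moved with the processing. A pseudocount of 0.1 gave 143 higher and 108 lower genes and one of 0.01 gave 109 and 82. Without a filter on low values there were 31 and 55 of 19792 tested genes. Quantile normalization gave 307 and 225, and median centring 339 and 145. Leaving out 1 sample gave from 4 to 197 higher and from 0 to 151 lower genes, and 0 of the 68 called named genes passed without WT_day0 replicate 2 or without *Pcgf5*-/-_day6 replicate 2. Most of the called named genes also did not pass without *Pcgf5*-/-_day0 replicate 2, WT_day6 replicate 2 or *Pcgf5*-/-_day6 replicate 1. A fit without a sample has fewer degrees of freedom, and other causes were not tested. The remaining alternatives, namely a mean FPKM over 5, loci of at least 300 bp, no variance trend, a robust prior, 1 replicate block and no chromosomes 6 and 11, stayed within 1.5 times of both counts.

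With the replicate number as a block there were 204 higher and 225 lower genes, and 58 of the 68 called named genes passed. With a replicate block for each day there were 557 and 610. The deviations of same-numbered samples correlated at 0.39 between the genotypes of day 6, 0.10 between those of day 0 and -0.08 to -0.02 across days. The main fit did not pair samples by number. Whether same-numbered samples of day 6 shared a batch was not tested. The contrast of *Pcgf5* was -2.11 to -0.89 over all alternatives, -1.63 to -0.89 with 1 sample left out and -1.26 with the block, and did not pass in any. Depth cannot be given as counts here.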
